A study of Rattus norvegicus with 9 samples.

Results

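Lithium was compared with control in RN46A cells, an immortalised serotonergic line made from embryonic rat raphe, the brainstem region that holds serotonin neurons. The 6 libraries labelled lithium or control, 3 of each, were taken by their titles from the 9 libraries of the study. The other 3 were treated with 0.5 mM valproate (VPA) for 72 h. All cells were first differentiated, and the lithium libraries come from cells then given 0.5 mM lithium for 72 h. The control libraries carry the same 72 h exposure with no concentration stated, and no label says what they received in place of drug. Polyadenylated RNA was sequenced without keeping strand, and where genes overlap or run antisense, whose reads were counted cannot be told apart. RN46A is 1 cell line, and separate cultures are stated for none of the libraries. The p-values therefore measure library-to-library spread, which may be technical.

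Lithium is a mood stabiliser with several known biochemical targets. It inhibits glycogen synthase kinase 3, which otherwise marks beta-catenin for destruction in the Wnt pathway. It also inhibits inositol monophosphatase, which recycles inositol for the phosphoinositide cycle that many neurotransmitter receptors use. Serotonin neurons make and recycle serotonin with a small set of enzymes and transporters, and serotonin transmission is among the systems that mood stabilisers are studied for. The comparison asks which transcripts differ after 72 h at 0.5 mM lithium, how large the differences were, and which sizes of difference 3 libraries against 3 can exclude.

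No gene passed the test after adjustment for the number of genes. Over 12719 genes with enough counts to be tested, edgeR's quasi-likelihood test called 0 genes higher and 0 lower with lithium at an adjusted p under 0.05 (0.0% of genes tested), and the lowest Benjamini-Hochberg adjusted p was 1.0. At an unadjusted p under 0.05 there were 116 genes (0.912%), 42 (0.33%) higher and 74 (0.582%) lower. That share is below the threshold of 0.05, which is the share a test gives on average when no gene differs. The p-values thus ran high, and the cause was not tested. DESeq2 also called 0 genes, with 98 at an unadjusted p under 0.05, and limma-voom called 0, with 117. In the edgeR fit VPA against control, which uses the same control libraries, gave 1106 called genes (8.7%), and VPA against lithium gave 1009 (7.93%). An absence of calls does not show that lithium and control cells were alike, and the intervals below give what remains possible.

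Library totals were 9580591 to 11555704 counts in control and 11207844 to 13030300 in lithium. Libraries did not sort by group. Levels are given in CPM, a gene's counts scaled to a fixed library size after TMM scaling. Over 10288 genes at a mean of at least 5 CPM, the median absolute log2 difference between 2 control libraries was 0.303, 0.315 and 0.401 for the 3 pairs. Between 2 lithium libraries it was 0.234, 0.265 and 0.275. The 3 closest pairs of libraries crossed the groups: control 1 and lithium 2 at 0.13, control 2 and lithium 1 at 0.134, and control 3 and lithium 3 at 0.167. The nearest library to each lithium library was thus a control library. No 2 libraries agreed within sampling noise, since the chi-square per degree of freedom was at least 10.8 for each pair.

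**Figure D1:**
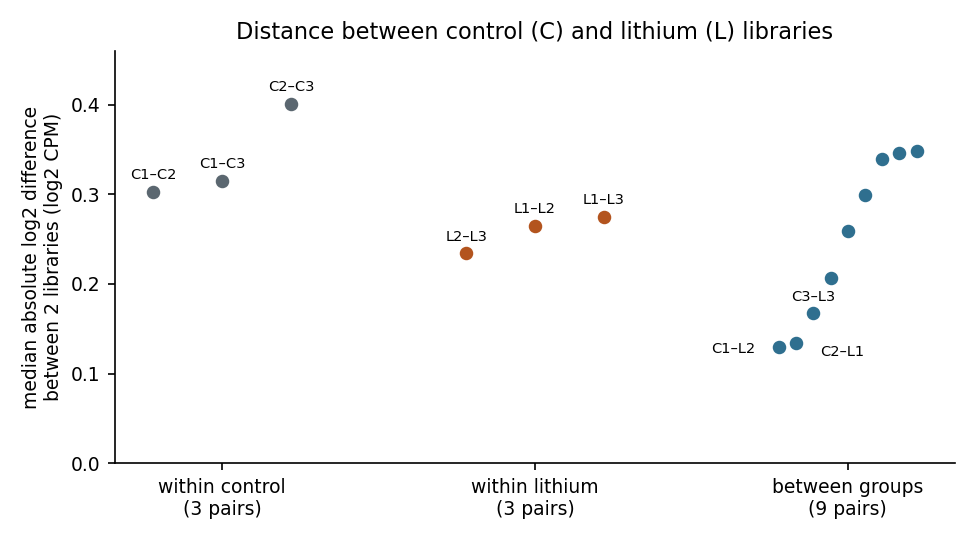
Median absolute difference in log2 CPM between 2 libraries, over 10288 genes at a mean of at least 5 CPM, for the 3 pairs within control, the 3 within lithium and the 9 between the groups. The 3 smallest distances, 0.13 to 0.167, joined a control and a lithium library, below the lowest distance within a group, 0.234.

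Fitted differences were small for most genes. The median log2 difference (lithium minus control) was 0.00, the middle 50% of genes lay between -0.10 and 0.10, and the central 90% between -0.35 and 0.32. In 95.41% of genes the difference was under 0.5 in size. A size of 1 or more on the log2 scale, a doubling or halving, was reached by 89 genes, 34 higher and 55 lower, and 36 of these 89 had a mean of 1 CPM or more. The 3 libraries of one group lay entirely above or below the 3 of the other for 417 genes (3.28%), with 217 (1.71%) higher and 200 (1.57%) lower in lithium.

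**Figure D2:**
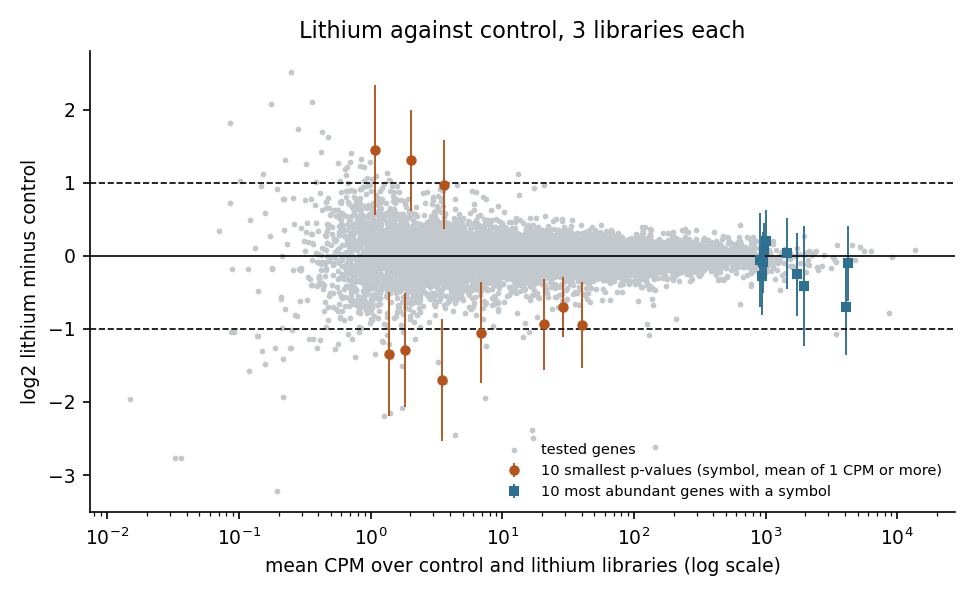
Log2 difference, lithium minus control, of each tested gene against its mean CPM over control and lithium libraries (log axis), with 95% intervals for the 10 genes with a symbol and the smallest p (circles) and the 10 most abundant (squares); dashed lines mark a 2-fold difference. The scatter widens toward low counts, and the 10 genes with the smallest p lie at least 0.70 from 0.

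Each difference carries a 95% confidence interval from the same fit. The median half-width was 0.51 on the log2 scale, or 1.42-fold. The interval lay wholly within 2-fold in both directions for 10529 genes (82.8%) and within 1.5-fold for 5552 (43.7%). Within 3-fold it lay for 12188 genes (95.8%) and within 4-fold for 12517 (98.4%). With 2 one-sided tests against a 2-fold change and Benjamini-Hochberg adjustment over all genes, a 2-fold change in either direction was excluded for 11113 genes (87.4%). The threshold was 0.05 on an adjusted one-sided p, a looser level per direction than that of a 95% interval. This count and the 82.8% are therefore not directly comparable. A 2-fold rise alone lay outside the 95% interval of 11465 genes (90.1%) and a 2-fold fall outside that of 11434 (89.9%). For 348 genes (2.74%) the interval reached past 2-fold both ways, so that neither a doubling nor a halving can be excluded. These limits rest on a spread that includes the differences between libraries described above. The fit did not pair the libraries that lay closest across the groups, and what such pairing would exclude was not tested. With 1 library left out the count within 1.5-fold was 3028 (without lithium 1) to 4234 (without control 3), and within 2-fold 9335 to 9947. In edgeR fits added after the data were seen, surrogate variables were estimated from the counts with the groups protected. With 2, the number estimated from the data, 9479 genes lay within 1.5-fold and 0 were called, with 574 at an unadjusted p under 0.05. With 3, 1 gene was called higher and 11 lower. The 1 called higher had an interval from -3.93 to 6.17 in the main fit.

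What could be excluded varied with the mean level of the gene. Of the 604 genes with a mean under 1 CPM, 3.31% had an interval within 2-fold, and of the 1941 genes from 1 to 5 CPM, 41.6% did. From 5 to 20 CPM the share was 89.4% of 2675 genes, from 20 to 100 CPM 97.6% of 5183, and from 100 to 1000 CPM 97.7% of 2224. Among the 92 genes at 1000 CPM or more it was 87.0%. A single gene would have needed an unadjusted p of 3.93e-06 to be called alone, which for the median gene corresponds to a 3.69-fold difference; the median need was 19.5-fold under 1 CPM, 8.12-fold from 1 to 5 CPM, 4.12-fold from 5 to 20 CPM and 3.04-fold from 100 to 1000 CPM. For genes from 100 to 1000 CPM the median interval thus reached out to 1.43-fold at its farther end, while a median of 3.04-fold was needed for a call.

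**Figure D3:**
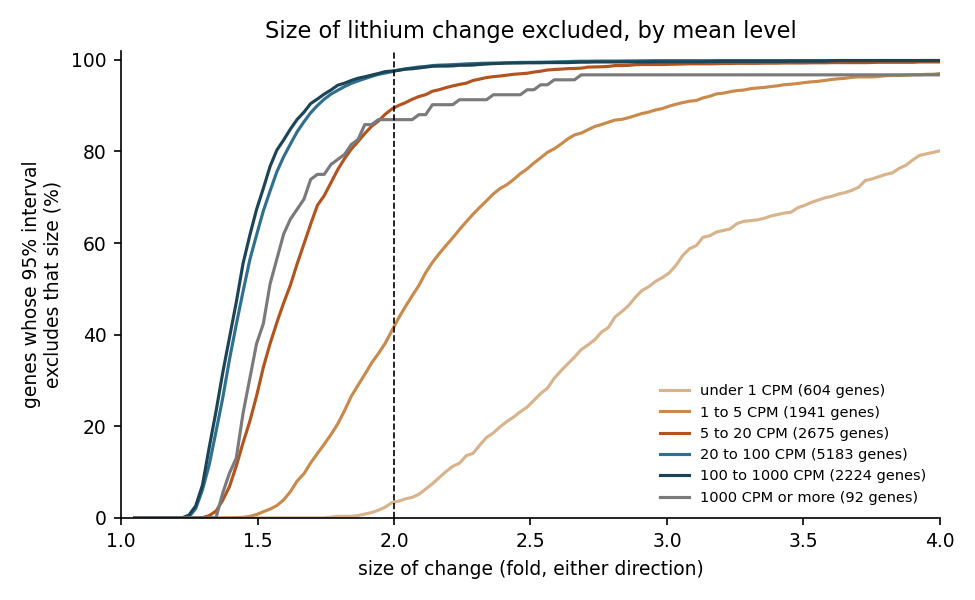
Share of genes (percent) whose 95% interval for lithium against control excludes a change of the size on the horizontal axis (fold, in either direction), with 1 line per band of mean CPM; the dashed line marks 2-fold. The share within 2-fold goes from 3.31% under 1 CPM to 97.7% between 100 and 1000 CPM.

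Names exist only for genes that the authors listed in their result tables: 1241 tested genes with a symbol, 107 of them in the authors' lithium table and 1134 only in their VPA tables. The lithium table was chosen by the authors on these same libraries, and the VPA tables share the control libraries, so counts over named genes are not independent evidence of a direction. Gene groups are given below by how many of their members had a name and were tested. In none of the 20 groups was a member called, against a background of 0.0%. Of the 19 groups with a tested member, the median of 15 turned sign when 1 of the 6 libraries was left out, and 4 kept it (matrix, fibroblast, cell cycle and circadian genes). Genes of a group that had no name were not analysed here, which includes the known lithium targets themselves: 0 of 10 had a name.

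In the Wnt pathway, 11 of 51 listed genes were tested, 6 lower and 5 higher with lithium, with a median log2 difference of -0.12 against 0.00 over all genes. Of these, 5 had an interval within 2-fold. Ccnd1, the cyclin D1 gene and a textbook target of beta-catenin, was at 1385, 1104 and 1782 CPM in control libraries 1 to 3 and at 1258, 1397 and 1722 CPM in lithium libraries 1 to 3. The groups overlapped, and the log2 difference was 0.04 (95% interval -0.45 to 0.52). Myc, another target gene, was at 52.5, 64.0 and 63.6 CPM in control and 53.3, 71.1 and 41.6 CPM in lithium, a difference of -0.12 (-0.81 to 0.58), so a doubling and a halving both lay outside its interval. Lef1, a transcription factor that binds beta-catenin and is also induced by it, was near 1 CPM in both groups, at -0.46 (-1.30 to 0.38). Its interval excludes a 2-fold rise but not a fall of that size. The inhibitor Nkd1 gave 0.24 (-0.72 to 1.20), and the receptor Fzd1 gave -0.53 (-1.17 to 0.10), with control 1 at 20.1 CPM and the other 5 libraries at 7.47 to 10.3 CPM.

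Of the 11 Wnt members 1 had groups that did not overlap, against 3.28% of all genes tested. It was Bambi, which encodes a membrane pseudoreceptor that dampens TGF-beta signalling. Control libraries were at 4.36, 5.10 and 4.09 CPM and lithium libraries at 7.67, 6.93 and 5.70 CPM. All 3 lithium values were above all 3 control values. The log2 difference was 0.58 (0.10 to 1.07), with an unadjusted p of 0.0225 and an adjusted p of 1 in edgeR, and Bambi is a gene of the authors' lithium table. The ligands Wnt6, Wnt10b, Wnt11 and Wnt3 differed by -0.34, -0.12, -0.12 and 0.27, and each interval held 0.

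Of 39 phosphoinositide cycle genes, 6 were tested, with a median of -0.04, and 5 had an interval within 2-fold. The kinases Akt1 and Akt2, which act downstream of phosphoinositide 3-kinase and upstream of glycogen synthase kinase 3, were measured precisely. Akt1 was at 312, 364 and 398 CPM in control and 377, 305 and 357 CPM in lithium, with full overlap and a difference of -0.05 (-0.42 to 0.31). Akt2 gave -0.06 (-0.39 to 0.28), so for both kinases a 1.5-fold change in either direction lay outside the interval. Marcks, a protein kinase C substrate that binds phosphoinositides at the membrane and is known as a lithium-sensitive protein in brain, gave 0.21 (-0.25 to 0.67). Its relative Marcksl1 gave -0.04 (-0.64 to 0.57). Plcd4, a phospholipase C that releases inositol trisphosphate, gave -0.10 (-0.71 to 0.52).

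Inpp5d encodes the SHIP1 phosphatase, which removes the 5-phosphate of phosphatidylinositol trisphosphate. Of the 6 tested members of this group it was the 1 whose libraries did not overlap, against 3.28% of all genes tested. It is a gene of the authors' lithium table, chosen on these same libraries. Inpp5d was at 6.35, 8.90 and 9.24 CPM in control and 10.2, 15.3 and 11.7 CPM in lithium. The difference was 0.60 (0.09 to 1.12; unadjusted p 0.0246, adjusted p 1 in edgeR). The same gene was lower in VPA than in lithium libraries, with a difference of -2.61 ± 0.26 (SE), with an adjusted p of 0.000525 in edgeR.

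Serotonergic identity could be followed by few named genes. Of 7 serotonergic markers, including those for serotonin synthesis and reuptake, only Maob had a name and was tested; the gene for monoamine oxidase B was at 0.868 to 1.45 CPM in control and 0.693 to 1.21 CPM in lithium, with a difference of -0.35 (-1.20 to 0.49). Slc29a4, the plasma membrane monoamine transporter, gave -0.22 (-0.80 to 0.37). Htr5b, a serotonin receptor, had 0.178 to 0.217 CPM in control and 0 to 0.175 CPM in lithium, below the level of 3 counts in each library (0.231 to 0.326 CPM), so no fold is given. Of the 5 tested serotonergic genes, 2 had libraries that did not overlap, Htr5b and the homeobox gene Hmx3, against 3.28% of all genes tested. For Htr5b this rests on 0.178 CPM in control 3 against 0.175 CPM in lithium 2. That gap is smaller than 1 count (0.077 to 0.109 CPM), so Htr5b shows no separation in counts. Hmx3, a gene of the authors' lithium table, was at 2.36, 2.71 and 2.58 CPM in control and 4.14, 5.35 and 3.39 CPM in lithium. These groups did not overlap, and the difference was 0.75 (0.07 to 1.43; unadjusted p 0.0338, adjusted p 1 in edgeR). Its neighbour in the family, Hmx2, gave -0.11 (-0.51 to 0.30), with overlapping groups.

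Growth factor genes were few and low. Vgf, a neuropeptide precursor induced by neurotrophins, was at 1.81, 1.52 and 5.24 CPM in control and 2.93, 3.16 and 5.01 CPM in lithium. The third library of each group was its highest, and the difference of 0.36 had an interval from -0.62 to 1.34. For Ngfr, the p75 neurotrophin receptor, control was at 4.54, 3.58 and 5.24 CPM and lithium at 4.39, 3.33 and 3.77 CPM, a difference of -0.22 (-0.73 to 0.29) whose interval excludes a doubling and a halving. VPA against lithium was 3.86 ± 0.43 (SE) for Vgf and 2.93 ± 0.23 for Ngfr, with adjusted p of 0.000733 and 0.000101 in edgeR. Igf2, insulin-like growth factor 2, lay below 3 counts in each control and lithium library, and VPA against lithium was 6.57 ± 0.45 (adjusted p 4.84e-05, edgeR); fitted folds against values this low depend on the prior count.

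Among neuronal genes the width of the interval varied with level. Of 34 pan-neuronal genes, 12 were tested, 7 higher and 5 lower with lithium, median 0.02, and 5 had an interval within 2-fold. Map2, a dendritic microtubule protein, was at 38.6, 24.8 and 23.9 CPM in control and 24.4, 31.1 and 31.8 CPM in lithium, a difference of 0.00 (-0.46 to 0.46). The neuronal tubulin gene Tubb3 gave 0.18 (-0.41 to 0.76), Uchl1, a neuronal ubiquitin hydrolase, gave -0.17 (-0.72 to 0.39), and the neurofilament gene Nefh gave -0.09 (-0.81 to 0.62). For less abundant members the intervals were wider, from -1.45 to 0.30 for the tau gene Mapt and from -1.03 to 1.46 for the SNARE gene Snap25. Celf3, a neuronal splicing regulator, had 1.27, 0.977 and 0.267 CPM in control and 2.15, 2.37 and 1.00 CPM in lithium. Its lowest lithium value, 1.00 CPM, lay below the 1.27 CPM of control 1, so the groups overlapped. The difference of 1.13 had an interval from -0.01 to 2.27.

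Among 36 genes of synaptic vesicle release 11 were tested, with a median of 0.02 and 4 intervals within 2-fold. Unc13b, a vesicle priming factor, was bounded most closely, at -0.07 (-0.46 to 0.33). The active zone scaffold Rims2 gave 0.48 (-0.12 to 1.08), and Syn1, which tethers vesicles to actin, gave -0.19 (-1.35 to 0.96) with the third library highest in both groups. Of 45 voltage-gated and other channel genes 7 were tested, with a median of -0.08, and for 0 of them did the interval lie within 2-fold. The calcium channel gene Cacna1h gave 0.37 (-0.32 to 1.06), Cacna1d 0.88 (-0.31 to 2.08), and the potassium channel gene Kcnh2 -0.40 (-1.11 to 0.31).

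Cholesterol and chaperone genes were bounded more tightly than the channel genes, with median half-widths of 0.65 and 0.64 against 1.09. Both were wider than the 0.51 over all genes. Of 27 cholesterol synthesis genes 12 were tested and 11 of the 12 intervals lay within 2-fold. The median was -0.06, and 11 members were lower. Neither held without any 1 of 3 libraries: without control 3 the median was 0.18 with 4 lower and 8 higher, without lithium 1 it was 0.01 with 4 lower, and without lithium 2 it was 0.02 with 6 lower. Msmo1, a methylsterol oxidase, was at 146, 120 and 263 CPM in control and 132, 125 and 236 CPM in lithium, with control 3 and lithium 3 both high and a difference of -0.10 (-0.84 to 0.63). Sqle, squalene epoxidase, gave -0.06 (-0.44 to 0.31), and Insig1, the sterol sensor that holds back SREBP, gave -0.29 (-1.15 to 0.56). Of 25 endoplasmic reticulum chaperone genes 5 were tested, with a median of -0.01 and 4 intervals within 2-fold. The calreticulin gene Calr gave -0.06 (-0.70 to 0.59) and the disulfide isomerase Pdia4 0.05 (-0.52 to 0.62).

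Of 35 cell cycle genes 7 were tested, 6 with an interval within 2-fold and a median of -0.07. Mcm7, a subunit of the replication helicase, was at 248, 270 and 290 CPM in control and 270, 233 and 265 CPM in lithium, a difference of -0.07 (-0.40 to 0.26). The cyclin kinase inhibitors Cdkn2b and Cdkn2a gave -0.09 (-0.51 to 0.33) and -0.28 (-0.82 to 0.25). All 4 tested redox genes had intervals within 2-fold, with a median of -0.02: Txnrd1, thioredoxin reductase, gave 0.14 (-0.34 to 0.62). Of the 16 tested interferon-induced genes (40 listed) 13 had an interval within 2-fold, 8 lay higher and 8 lower, and the median was 0.00. B2m, the light chain of MHC class I, gave 0.20 (-0.23 to 0.62), Psmb8, an immunoproteasome subunit, gave 0.10 (-0.26 to 0.45), and the transcription factor Irf1 gave -0.03 (-0.38 to 0.31).

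In the interferon group 2 of 16 genes had libraries that did not overlap, against 3.28% of all genes tested, both in the authors' lithium table. Both come from families of related genes, and whether relatives shared reads was not tested. Oasl, an antiviral protein related to oligoadenylate synthetase, was at 54.5, 39.6 and 63.9 CPM in control and 32.0, 20.2 and 29.9 CPM in lithium. Each lithium library was below each control library, with a difference of -0.95 (-1.54 to -0.35; unadjusted p 0.00464, adjusted p 1 in edgeR). Ifit1, which binds viral RNA, was at 2.99, 2.71 and 3.02 CPM in control and 1.98, 1.49 and 1.85 CPM in lithium, a difference of -0.71 (-1.39 to -0.03). The other 14 members of the group had intervals that held 0.

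Extracellular matrix genes were the group with the lowest median apart from fibroblast markers, with which it shares genes. Of 51 listed genes 22 were tested, 19 of them lower with lithium, and the median was -0.42. In edgeR 8 of the 22 had an unadjusted p under 0.05, against 0.912% of all genes tested, and 8 were named by the authors' lithium table. Over the 14 that were not, 12 were lower, the median was -0.32 and 1 had an unadjusted p under 0.05. Without control 1, 11 of the 14 were lower and the median was -0.16. Fn1, fibronectin, was at 7382, 3171 and 4687 CPM in control and 3449, 3049 and 2847 CPM in lithium, a difference of -0.71 (-1.36 to -0.05; unadjusted p 0.0377, adjusted p 1 in edgeR). Control 1 and control 3 were high, and control 2 lay within the lithium range. Without control 1 the median of the group was -0.26, 18 of 22 were lower, and 1 member had an unadjusted p under 0.05.

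The fibrillar collagen genes Col3a1 and Col1a1 were highest in control 1 and control 3 respectively. Another, Col5a2, was highest in control 2, at 587.2, 735.4 and 360.9 CPM in control and 488.1, 564.2 and 320.5 CPM in lithium. The groups overlapped for Col5a2, with a difference of -0.29 (-1.10 to 0.51). Col3a1, type III collagen, was at 285, 123 and 124 CPM in control and 115, 65.4 and 70.0 CPM in lithium. The groups did not overlap, although lithium 1 came close to controls 2 and 3, and the difference was -1.09 (-1.84 to -0.33; unadjusted p 0.00856, adjusted p 1 in edgeR). For Col1a1, type I collagen, control was at 186, 77.7 and 228 CPM and lithium at 80.8, 63.4 and 114 CPM, a difference of -0.93 (-1.66 to -0.21) with overlapping groups. Lox, lysyl oxidase, which cross-links collagen, was at 42.3, 20.9 and 18.3 CPM in control and 16.3, 13.5 and 12.7 CPM in lithium. Its groups did not overlap, control 1 stood highest, and the difference was -0.94 (-1.56 to -0.32; unadjusted p 0.00649, adjusted p 1 in edgeR). Sparc, a collagen-binding matricellular protein, gave -0.42 (-0.98 to 0.14), and the basement membrane linker Nid2 gave 0.04 (-0.53 to 0.62).

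Fibroblast markers, most of which are themselves matrix genes, also lay lower. Of 8 fibroblast markers 5 had a name and were tested, Col1a1, Col3a1, Dcn, Lum and Pdgfra, and 4 of the 5 had a count in every library. Their summed level was 504, 219 and 360 CPM in control libraries 1 to 3 and 207, 133 and 188 CPM in lithium libraries 1 to 3. All 3 lithium sums lay below all 3 control sums, with control 2 (219) close to lithium 1 (207). Col1a1 and Col3a1 were the most abundant of the 5. They and Pdgfra are genes of the authors' lithium table, chosen on these same libraries. Over a wider list of fibroblast and mesenchymal genes (8 of 17 tested, led in counts by Vim and S100a4) the groups overlapped, with sums of 6053, 7924 and 6941 CPM in control and 6590, 5065 and 6121 CPM in lithium. Of these 8, 5 were outside the lithium table, all 5 lower, with a median of -0.41. In edgeR 1 of the 5 had an unadjusted p under 0.05, against 0.912% of all genes tested. Lum, lumican, a collagen-binding proteoglycan, was at 4.90, 1.41 and 0.533 CPM in control and 1.29, 0.263 and 0 CPM in lithium, and Dcn, decorin, its relative, at 21.4, 12.4 and 1.42 against 6.63, 1.84 and 0.693 CPM. Their differences of -2.15 (-4.38 to 0.08) and -1.95 (-3.81 to -0.09) were the lowest among genes with a symbol and a mean of 1 CPM or more. For both genes control 3 lay below lithium 1, so the groups overlapped. The size of both rested on single libraries: without control 1 the difference was -0.89 for Lum and -1.16 for Dcn, and without lithium 1 it was -4.10 and -3.23. The collagens are also made by many adherent cell types, and in bulk RNA fewer cells of a type and less RNA per cell cannot be told apart; the part of such cells in the matrix result was not tested. The other markers gave no such split: summed neuronal markers (7 of 9 tested) were 41.5 to 52.5 CPM in control and 41.4 to 53.1 CPM in lithium, crest and glial markers (3 of 7) 7.49 to 11.6 and 10.6 to 12.5 CPM, and leucocyte markers (3 of 6) 23.4 to 31.4 and 22.5 to 33.6 CPM. Of 3 endothelial markers 0 had a name.

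**Figure D4:**
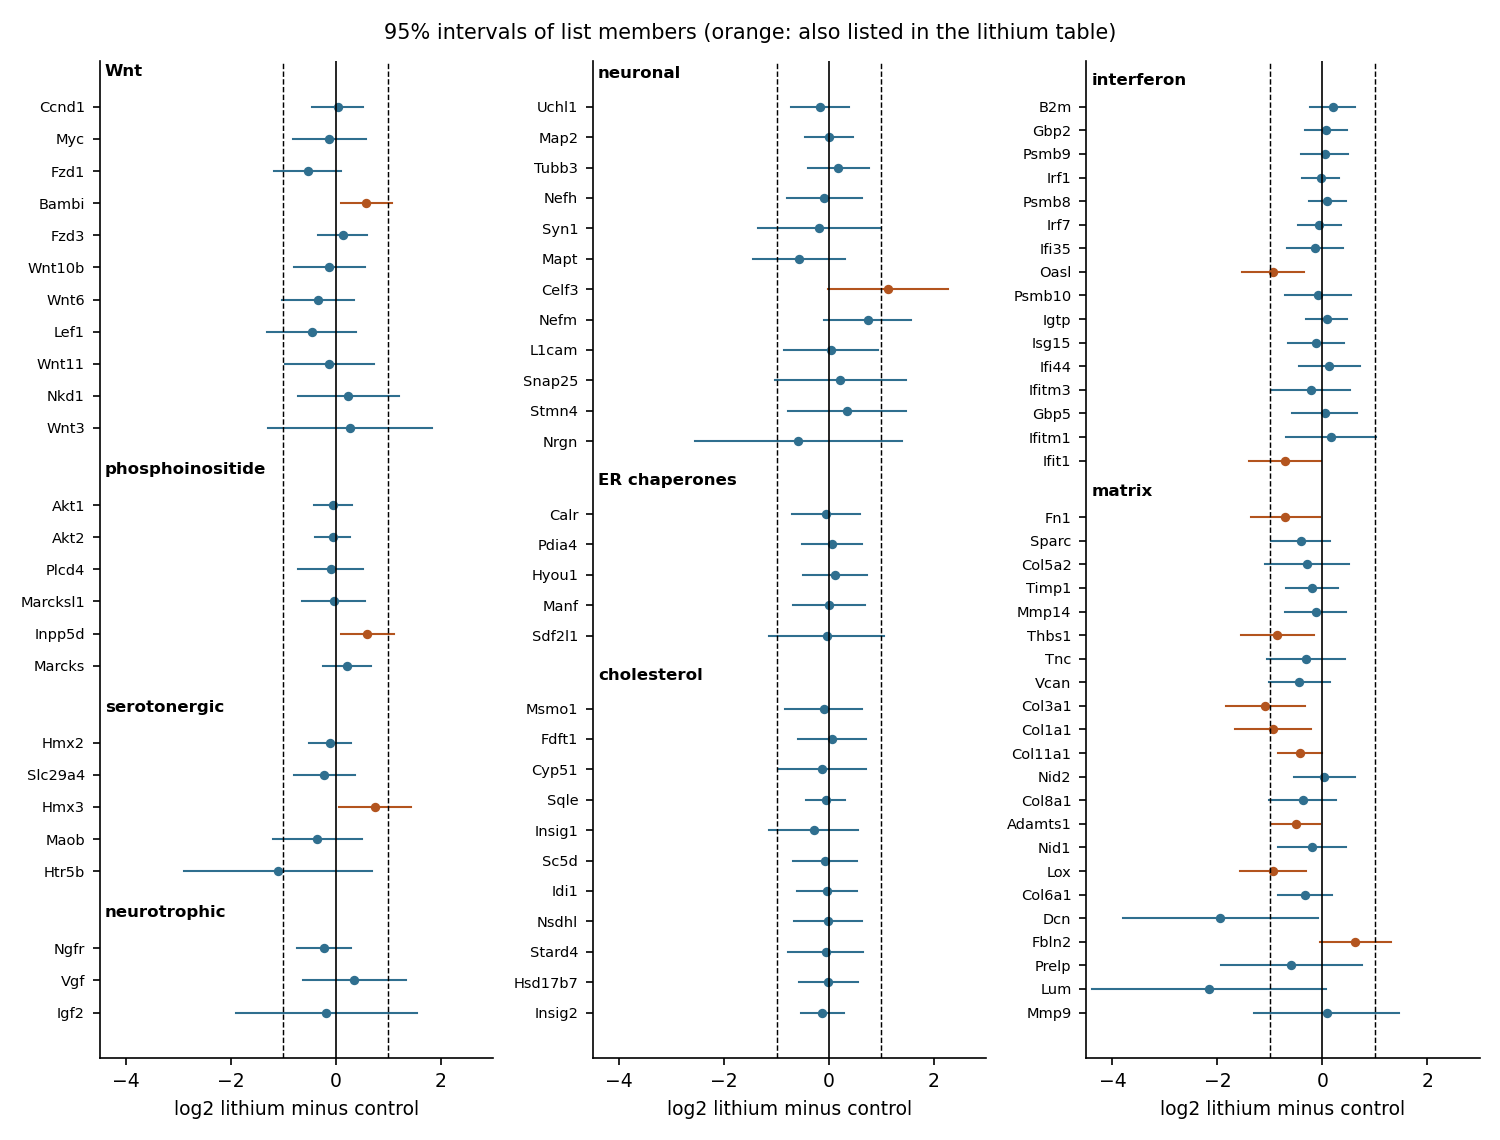
Log2 difference, lithium minus control, with its 95% interval for members of 9 gene groups, with dashed lines at a 2-fold difference in each direction and genes of the authors' lithium table in orange. Of the cholesterol genes shown, each but Insig1 has an interval inside the lines, and 19 of 22 matrix genes lie below 0.

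The 10 named genes with the smallest p (mean of 1 CPM or more) were Akr1c3, Svop, Vsir, Lrrc32, Nphs1, Oasl, Ptpn22, Slco4a1, Cx3cl1 and Lox, 3 higher and 7 lower with lithium. All 10 had libraries that did not overlap, against 3.28% of all genes tested, and all 10 are in the authors' lithium table. A choice by smallest p favours genes whose libraries do not overlap, and symbols exist only for genes the authors listed. Neither count is therefore evidence of an effect of lithium. The lowest p was that of Akr1c3, an aldo-keto reductase of steroid and prostaglandin metabolism, at 6.35, 4.99 and 4.71 CPM in control and 2.76, 0.877 and 1.31 CPM in lithium. It has related genes, and whether these shared reads was not tested. Every lithium value of Akr1c3 was lower than every control value, with a log2 difference of -1.70 (-2.53 to -0.86; unadjusted p 0.000848, adjusted p 1 in edgeR). Its interval runs from an 82.7% to a 45.0% lower level.

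Svop, a transporter-like protein of synaptic vesicles, was at 1.45, 0.868 and 1.16 CPM in control and 2.67, 3.42 and 2.62 CPM in lithium. All 3 lithium libraries were above all 3 controls, and the difference was 1.31 (0.62 to 2.00; unadjusted p 0.00146, adjusted p 1 in edgeR). Nphs1, which encodes the adhesion protein nephrin, was at 0.544, 0.651 and 0.533 CPM in control and 1.12, 2.10 and 1.54 CPM in lithium, a difference of 1.45 (0.56 to 2.34). The phosphatase gene Ptpn22, a brake on lymphocyte receptor signalling, was at 2.09, 2.06 and 3.20 CPM in control and 4.05, 4.74 and 5.70 CPM in lithium, a difference of 0.97 (0.36 to 1.58). Colq, the collagen tail that anchors acetylcholinesterase, gave 1.09 (0.09 to 2.09). These genes lay in the band of 1 to 5 CPM, where 41.6% of genes had an interval within 2-fold.

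Vsir, an inhibitory immune checkpoint receptor of the B7 family, had the highest mean CPM after Oasl among the 7 lower genes of those 10. It stood at 39.4, 31.4 and 36.0 CPM in control and 24.2, 21.3 and 20.1 CPM in lithium. All 3 lithium libraries lay below all 3 controls, and the difference was -0.70 (-1.11 to -0.29; unadjusted p 0.00286, adjusted p 1 in edgeR), a 38.5% lower level with an interval from 53.7% to 18.4% lower. Lrrc32, which holds latent TGF-beta at the cell surface, was at 2.99, 2.5 and 2.31 CPM in control and 1.38, 0.789 and 1.00 CPM in lithium, a difference of -1.29 (-2.07 to -0.52). Cx3cl1, the chemokine fractalkine, gave -1.05 (-1.74 to -0.36) and Slco4a1, an organic anion transporter, -1.34 (-2.20 to -0.49). Aqp1, the aquaporin 1 water channel, is also a gene of the authors' lithium table. It was at 166, 158 and 176 CPM in control and 128, 105 and 127 CPM in lithium. These groups did not overlap, and the difference was -0.47 (-0.81 to -0.14; unadjusted p 0.0102, adjusted p 1 in edgeR), so a fall of 2-fold lay outside its interval.

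Set beside VPA, some of these genes differed between the drugs and others did not pass the test. VPA against lithium was -1.92 ± 0.16 (SE) for Aqp1 (adjusted p 0.000175, edgeR) and 2.42 ± 0.37 for Slco4a1 (adjusted p 0.00283, edgeR). For Vsir it was -0.05 ± 0.19 (adjusted p 0.915), for Svop 0.12 ± 0.29 (0.861), for Oasl 0.21 ± 0.27 (0.724) and for Lox 0.26 ± 0.29 (0.667). A p that misses the threshold does not show that lithium and VPA acted alike on these genes.

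Among named genes the 10 with the highest mean CPM, a value that also grows with transcript length, were Vim, Fn1, S100a4, Lgals1, Ccnd1, B2m, Stmn1, Cdkn2b, Cdkn2a and Calr. Of these, only the interval of Fn1 left out 0. Vim, the intermediate filament vimentin, was at 3769, 4279 and 5128 CPM in control and 3922, 3853 and 4474 CPM in lithium, a difference of -0.11 (-0.62 to 0.41). Stmn1, the microtubule regulator stathmin, gave the narrowest interval of the 10, 0.08 (-0.28 to 0.45). S100a4, a calcium-binding protein of motile cells, was at 1780, 3426 and 1453 CPM in control and 2460, 1078 and 1458 CPM in lithium. Control 2 and lithium 1 were its highest libraries, so the spread within groups exceeded the difference of -0.41 (-1.23 to 0.40). Lgals1, galectin 1, a carbohydrate-binding protein, gave -0.26 (-0.82 to 0.31).

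The authors' deposited lithium table gives normalized counts for the same 6 libraries, so the count table can be checked against it gene by gene. All 137 of its genes were in the count table, of which 117 could be tested and 20 fell under the filter on low counts. Over genes with at least 20 counts, its values were a median of 4.28% to 4.93% above the count table's counts divided by median-ratio size factors, in each of the 6 libraries. After that shift the median absolute log2 deviation was 0.022 to 0.025, and 4 to 8 of the 95 to 103 genes in a library were off by over 10%. The shift was nearly the same in control and lithium libraries, so it left the differences between the groups almost where they were.

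The log2 difference between lithium and control had the same sign in the deposited normalized counts and in the count table for 135 of 137 genes. The median absolute gap between the 2 differences was 0.02 on the log2 scale, with 0.5 normalized counts added to each value. Among the 72 genes at a mean of at least 5 CPM the sign was the same for all 72, and the largest gap was 0.07. The largest gap over all, 2.52, was at AC135409.1, which has 0 counts in all 6 libraries of the count table. In the deposited normalized counts it stood at 3.00, 14.6 and 4.94 in controls 1 to 3. The 2 sources thus do not hold the same counts for this gene, and the reason was not tested. In the deposited normalized counts 108 genes had libraries that did not overlap, 101 had in the count table, and 98 in both. As the authors chose the 137 genes on these libraries, these counts describe the table and are not evidence of an effect of lithium.

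Tested on the counts, those 117 genes gave 82 with an unadjusted p under 0.05 and 0 called (0.0%). The 116 genes at an unadjusted p under 0.05 were made up of these 82 and 34 others. Among the 137, 44 were higher and 93 lower with lithium in the deposited normalized counts. The 95% interval held 0 for 35 of the 117 and lay within 2-fold for 28.

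**Figure D5:**
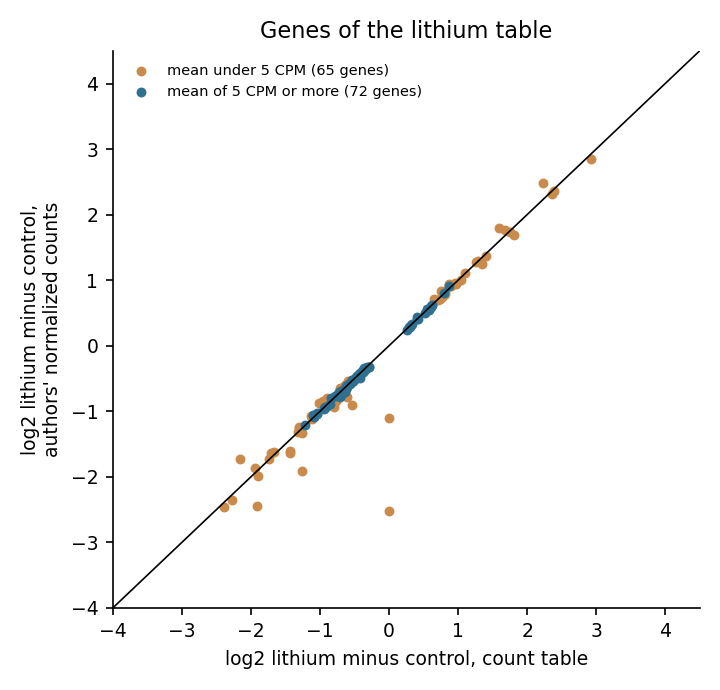
Log2 difference, lithium minus control, of the 137 genes of the authors' lithium table, from its normalized counts (vertical axis) and from the count table (horizontal axis), with the line of equality and colours for a mean under 5 CPM and of 5 CPM or more. The sign was the same for 135 genes, and the 72 genes of 5 CPM or more lie within 0.07 of the line.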

How the data were processed

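For 9 libraries the authors deposited whole-number counts of reads by Ensembl identifier, made with HTSeq and STAR per the table's title; 0 lines were without a gene. The authors' lithium table gives normalized counts per library (a signal), which are gene counts divided by 1 size factor per library, per the file headers; its fold changes and p-values were not used. Tables that the authors deposited for VPA, one with mean normalized counts and one with a p-value per transcript, were read only for the symbols they pair with identifiers. The submitters' processing notes name STAR 2.5.1 and DESeq2, with no role for either, beside tools for the other tables. The genome build is not given in the sources used here, nor is the annotation, and no coordinates are printed.

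Libraries were grouped and numbered by their titles. The deposited counts were kept by filterByExpr (minimum count 10), scaled by TMM and fitted by edgeR 4.0.16 (R 4.3.3) with its robust quasi-likelihood model, 1 mean per group over all 9 libraries (6 residual degrees of freedom, biological coefficient of variation 0.22), with two-sided tests whose p-values were adjusted by Benjamini-Hochberg over 12719 genes. The standard error (SE) was the log2 difference over the square root of F; for differences under 0.01, where that ratio is unstable, it came from the weights of the same model, a departure from the design made after the counts were seen. Intervals used the t quantile at the gene's total degrees of freedom (median 11.7) and were not adjusted for the number of genes; 12718 genes had one. One count was worth 0.077 to 0.109 CPM, and 3 counts 0.231 to 0.326 CPM. Alternatives used limma 3.58.1, DESeq2 1.42.0 and sva 3.50.0, and summaries SciPy 1.17.1 and pandas 2.3.3. The fit was tested on simulated data.

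The gene lists and members were chosen with earlier results of these data known. Genes named are those with a symbol and the 10 smallest p-values, the 10 highest mean CPM, the 4 largest differences each way (at a mean of 1 CPM or more, except for the second of these), and 4 of each list by mean CPM (84 genes). Htr5b, Ifit1, Inpp5d, Insig1, Lef1, Mapt, Marcks, Nid2, Nkd1, Pdgfra, Psmb8, Snap25, Sqle and the Wnt ligands lie outside this rule and were chosen from the lists after their values were seen. Of the supplied gene table, 0 Ensembl identifiers matched, so symbols come from the authors' tables alone. A few genes under this rule are left out and not reported here.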

Additional observations from a re-analysis of the deposited data

How the results depend on the processing

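Calls stayed at 0 in each direction with other scalings, filters, DESeq2, limma-voom, only the 6 control and lithium libraries, and each library left out. With 3 surrogate variables, added after the data were seen, there was 1 call higher and 11 lower, 3 of them members of the gene lists (Aqp1, Col5a2 and Col11a1). The 1 higher call, ENSRNOG00000058555, split the libraries across the groups. It was at 24.2 CPM in control 2, 52.7 in lithium 1 and 23.8 in VPA 2, and at 0.544 to 1.12 CPM elsewhere. Genes at an unadjusted p under 0.05 numbered 247 with no filter, 221 with the replicate block (156 with the block on 2 groups), 227, 574 and 1063 with 1, 2 and 3 surrogate variables, and 59 (without lithium 2) to 234 (without control 2) with a library left out. Title numbers did not pair the libraries, although the replicate block used them. Same-numbered control and lithium libraries deviated from their group means with correlations of -0.418, -0.0815 and 0.801 over 10288 genes. Only the libraries numbered 3 correlated best with each other. Genes with an interval within 1.5-fold numbered 9479 and 9920 with 2 and 3 surrogate variables and 3028 to 4234 with a library left out (3044 without control 1, 3028 without lithium 1, 3043 without lithium 3); within 2-fold it was 9335 to 9947 with a library left out. The median half-width was 0.64 with no filter, 0.44 with the replicate block, 0.41, 0.27 and 0.22 with 1, 2 and 3 surrogate variables, and 0.54 to 0.59 with a library left out. The log2 difference that the median gene needed to be called alone was 1.17 by DESeq2 and 2.17 with only the 6 libraries. It was 1.77 with the replicate block (2.27 on 2 groups) and 2.02 to 2.30 with a library left out. With 1, 2 and 3 surrogate variables it was 1.62, 0.97 and 0.68. Single genes could be called at less: with 3, Col5a2 was called at -0.42 and Aqp1 at -0.46. The gap between the lithium table and the count table was 0.01 at a mean of 5 CPM or more (0.0105) and 0.0195 to 0.0272 with a library left out. Except where a setting tests fewer libraries or more genes, the cause was not tested. No named gene whose interval excluded 0 turned direction under these settings. Intervals were wider at low levels, with a median half-width of 1.16 under 1 CPM and 0.82 from 1 to 5 CPM, against 0.51 over all genes. The effect of depth was not tested.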

Other observations

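Some identifiers without a symbol split the libraries across the groups; they were chosen after their values were seen, and no explanation was tested. ENSRNOG00000054493 was at 0.91, 39.8 and 1.51 CPM in control libraries 1 to 3, at 79.5, 1.14 and 0.77 CPM in lithium libraries 1 to 3 and at 0.31, 32.9 and 1.45 CPM in VPA libraries 1 to 3. It was therefore high in control 2, lithium 1 and VPA 2 and near 1 CPM in the other 6 libraries, and its lithium difference of 0.96 had an interval from -4.23 to 6.16.

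A second pattern set lithium 1 and VPA 1 apart. ENSRNOG00000030478 was at 3987, 4902 and 5100 CPM in control libraries, at 1.64, 2382 and 4302 CPM in lithium libraries and at 1.09, 5878 and 3683 CPM in VPA libraries. Its difference was -1.06, with an interval from -6.49 to 4.36. It lies in the band of 1000 CPM or more, where a smaller share of genes had an interval within 2-fold than in the bands from 5 to 1000 CPM.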
